A study of Mus musculus with 7 samples.

Results

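The genes described here are 50 genes of ribosome biogenesis and RNA polymerase I, of the 53656 genes counted in 7 RNA-seq libraries of CD8 T cells from mouse tumours. They are a list of gene names chosen by a reading of the same comparison, with the fold changes between libraries with and without SMARTA cells known. The fold changes, p-values and calls of these genes, and their counts beside those of all genes, therefore describe these libraries and are no independent support for a direction. The cells are OT1 cells, CD8 T cells with a transgenic receptor for an ovalbumin peptide, isolated by flow sorting for CD8 and for CD45.1, a marker that tells transferred cells from those of the host. They came from tumours of B16-OVA-GP61, a mouse melanoma line that, by its name, carries ovalbumin and the GP61 epitope. Both groups share the OT1 cells, the tumour line and the sort. SMARTA cells are CD4 T cells whose transgenic receptor recognises GP61. The OT1 cells of 4 libraries came from tumours without SMARTA cells and those of 3 libraries from tumours with them, named below as libraries without and with SMARTA. The comparison asks how the presence of these CD4 T cells goes with the transcripts of the CD8 T cells. The labels give neither age, sex and time after tumour injection, nor whether replicates were separate animals. The p-values therefore speak only of the spread among these 7 libraries, and that spread may be technical.

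Ribosomes are built in the nucleolus. RNA polymerase I transcribes the long precursor of ribosomal RNA, small nucleolar ribonucleoproteins (snoRNPs) modify it, and a large set of helicases, scaffold proteins and GTPases cut it, fold it and join it to ribosomal proteins into the small and the large subunit. In T cells this machinery is built up when a resting cell is activated and begins to grow, and the transcription factor MYC is a known activator of many of its genes.

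The libraries held 38092722 to 49438357 counts, and every one of the 50 genes passed the filter on low counts, with at least 64 counts in each library. Levels are given as CPM (counts per library total). Summed levels and the single marker genes of this paragraph were scaled by that total alone, and all other single genes by TMM factors as well. Markers of CD8 T cells summed to 10070 to 12020 CPM without SMARTA and to 11420 to 13700 CPM with SMARTA. All 8 were detected, so the labelled cell type was in the libraries. Replicate 1 with SMARTA stands apart by its erythroid transcripts, which summed to 4829 CPM over 7 genes against 9.723 to 223.2 CPM in the other libraries. Melanoma markers reached 68.43 CPM in replicate 2 without SMARTA and 6.701 to 16.94 CPM elsewhere. The sum of 4 genes of CD4 and regulatory T cells was higher with SMARTA without overlap (39.7 to 96.2 against 120.5 to 140.3 CPM). Cd40lg (26.23 to 68.06 against 88.14 to 101 CPM) and Zbtb7b made up most of it, while Cd4 (0.6588 to 7.305 against 2.048 to 8.091 CPM) and Foxp3 (0.6382 to 11.97 against 0 to 1.838 CPM) overlapped. The sum of 6 fibroblast and endothelial genes also did not overlap (89.51 to 135.5 against 149.9 to 208.3 CPM), and nearly all of it was Pecam1 (82.48 to 116.2 against 136.8 to 186 CPM). The fibroblast genes Dcn, Col1a1, Col1a2 and Col3a1 overlapped between the groups. Those of neutrophils (6 genes, of which Elane was at 0 in all libraries; 2.718 to 29.69 against 0.8201 to 2.124 CPM) were lower without overlap. Those of B cells (7 genes; 329.9 to 557.3 against 285.4 to 643.4 CPM) and of macrophages (8 genes; 49.25 to 180 against 29.64 to 196.3 CPM) overlapped. Markers of dividing cells summed over 12 genes to 2479 to 4809 CPM without and 776 to 1159 CPM with SMARTA, and they therefore moved with the groups in the same way as the genes below. The part of these transcripts in the results was not tested. Bulk libraries cannot tell fewer cells of a kind from less RNA per cell.

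Transcripts of ribosome biogenesis genes were lower in OT1 cells from tumours with SMARTA cells. Of the 50 genes, 49 had a negative log2 fold change (with minus without SMARTA), against 50.2% of the 15896 genes tested, and the median was −0.66, against 0.00 over all genes tested. The 7 genes that passed the test (edgeR's quasi-likelihood F test with p-values adjusted by Benjamini-Hochberg over all genes tested, below 0.05; such genes are named called) all fell: Nolc1, Nop56, Nhp2, Nop16, Noc2l, Ebna1bp2 and Wdr75. Over all genes 1.63% were called lower, 1.52% higher and 3.15% in either direction. In 25 of the 50 genes every library with SMARTA lay below every library without, and in none did every one lie above; over all genes these shares were 10.5% and 8.73%. By size, 13 genes were at least 2-fold lower, against 12% of all genes, 16 were between 1.5-fold and 2-fold lower, and 21 differed by less than 1.5-fold. At an unadjusted p under 0.05, 25 were lower, against 9.37% of all genes.

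Summed over the 50 genes, the level was 6622, 6527, 5791 and 7683 CPM in replicates 1 to 4 without SMARTA and 3795, 4108 and 3193 CPM in replicates 1 to 3 with SMARTA (6656 ± 778.9 against 3699 ± 465.2 CPM, mean ± SD, n = 4 and 3). The groups did not overlap in this sum. Without Ncl and Npm1 it was 5321 ± 500.3 against 3051 ± 585.5 CPM. Both sums were scaled by library totals alone, which widens the difference. With such scaling the median log2 fold change of the 50 genes was −0.82, against −0.66 with TMM factors. The number of genes below the lowest library without SMARTA was 31, 35 and 42 in replicates 1, 2 and 3 with SMARTA. The same number was not counted over all genes, so it cannot set the 50 genes apart from others.

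**Figure D1:**
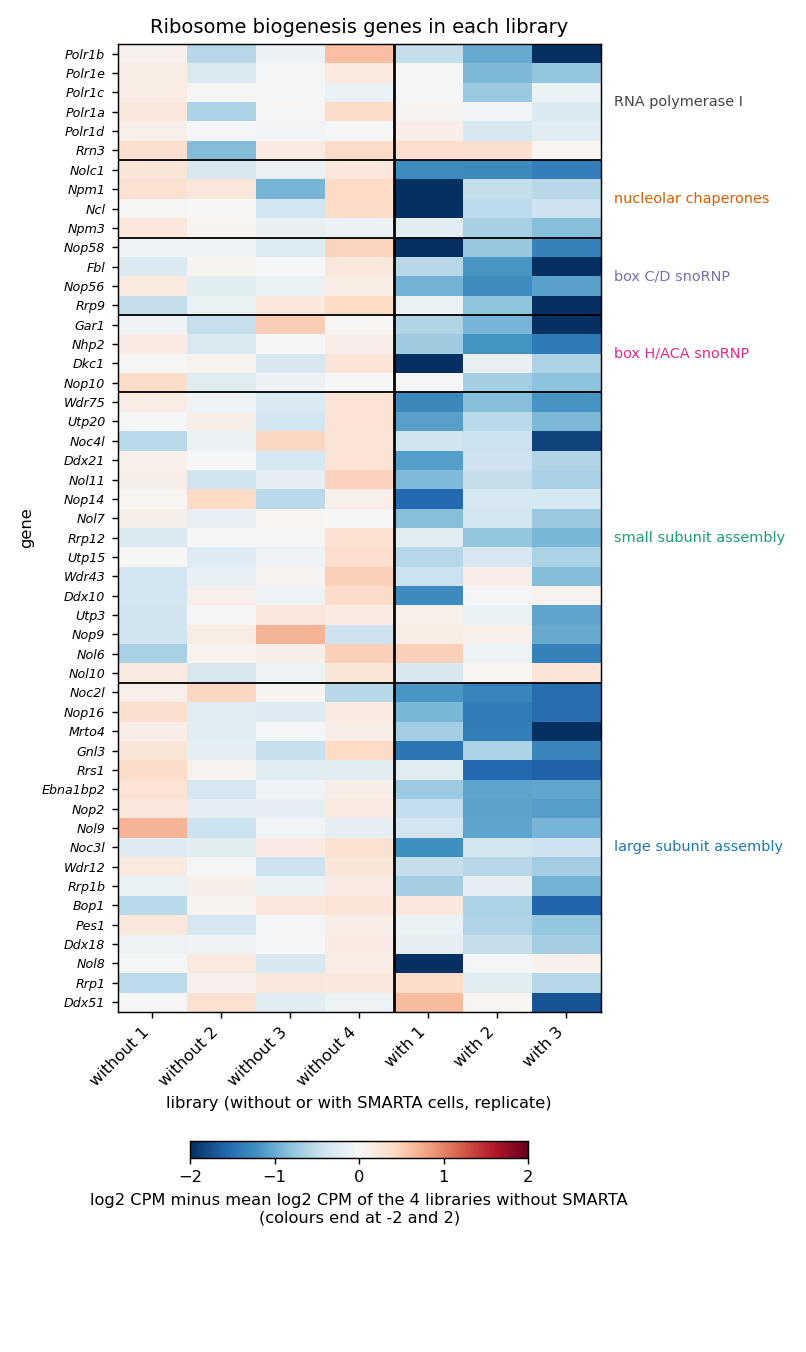
Log2 CPM of each of the 50 genes (rows, ordered by role and fold change) in the 7 libraries (columns), relative to the gene's mean over the 4 libraries without SMARTA; blue is lower and red is higher, and colours end at −2 and 2. Most cells of the 3 columns with SMARTA are blue, except for several RNA polymerase I rows and for single genes that are low in replicate 1 or in replicate 3 only.

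The number of calls varied with the libraries that entered. Without replicate 2 lacking SMARTA 4 genes were called, against 2.56% of all genes in either direction. Without replicate 1 with SMARTA 10 were called, 6 of them among the 7, against 5.41% of all genes. EdgeR called none when the library left out was replicate 1, 3 or 4 of the group without SMARTA, or replicate 2 or 3 of the other group. In these fits 0.11% to 0.64% of all genes were called. At an unadjusted p under 0.05, 23, 23, 15, 19 and 19 of the 50 genes were lower. Over all genes 2232, 2532, 2201, 2503 and 2620 were at such a p in either direction. All 7 called genes stayed negative in each of the 7 fits that leave out 1 library, and so did 44 of the 50.

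Among the nucleolar chaperones and their partners, Nolc1 fell. It encodes Nopp140, which binds both classes of snoRNP, and lies on chromosome 19 from 46075863 to 46085530 (GRCm38). Nolc1 was at 282.2, 190.2, 217.6 and 274.2 CPM in replicates 1 to 4 without SMARTA and at 99.6, 98.22 and 91.7 CPM in replicates 1 to 3 with SMARTA. The 3 values with SMARTA are close together and lie far below the lowest of the others. The difference was 2.50-fold (241.0 ± 44.46 against 96.51 ± 4.22 CPM, mean ± SD, n = 4 and 3; log2 fold change −1.32, SE 0.20; edgeR adjusted p = 0.0184).

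Ncl encodes nucleolin, an abundant RNA-binding protein of the nucleolus. It was at 840.9, 826.4, 641.8 and 1067 CPM without and 209.2, 578.4 and 625.7 CPM with SMARTA. The groups did not overlap, but replicate 1 with SMARTA was far lower than the others with SMARTA, and the gene was not called (log2 fold change −0.84 ± 0.36, SE; edgeR adjusted p = 0.263). Npm1, which encodes the nucleolar chaperone nucleophosmin, was at 500.1, 470.3, 213.0 and 528.9 CPM without and 99.6, 290.5 and 275.3 CPM with SMARTA. Its groups overlapped, because replicate 3 without SMARTA lay below replicates 2 and 3 with SMARTA (−0.95 ± 0.43; edgeR adjusted p = 0.283). Npm3, a nucleophosmin relative, was low in all libraries (8.203 ± 0.9566 against 5.537 ± 1.279 CPM; −0.57) and not called.

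The box C/D snoRNP adds methyl groups to ribosomal RNA. Its core protein Nop56, on chromosome 2 from 130274430 to 130279313, was at 476, 354.1, 378.1 and 459.6 CPM without and 213.9, 175.8 and 195.6 CPM with SMARTA. It fell 2.14-fold (416.9 ± 59.88 against 195.1 ± 19.08 CPM; −1.10 ± 0.18, SE; edgeR adjusted p = 0.0252), with a wide gap between the groups. Nop58, its paralogue in the same particle, was at 131.5, 132, 115.1 and 190.8 CPM without and 30.1, 82.63 and 54.68 CPM with SMARTA. The fold change of Nop58 was larger, but its libraries with SMARTA were spread over a wider range and it was not called (−1.35 ± 0.35; edgeR adjusted p = 0.0758). Fbl, the methyltransferase fibrillarin, was also lower in every library with SMARTA (83.27 to 118.9 against 25.05 to 68.98 CPM; −1.14; edgeR adjusted p = 0.105). Rrp9, a protein of the U3 snoRNP, overlapped between the groups (−0.84; edgeR adjusted p = 0.338).

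The box H/ACA snoRNP converts uridines of ribosomal RNA to pseudouridines, and all 4 of its core proteins had negative fold changes. Nhp2, on chromosome 11 from 51619735 to 51623714, was at 166.7, 121, 149.4 and 163.3 CPM without and 91.22, 64.89 and 55.65 CPM with SMARTA. It fell 2.13-fold (150.1 ± 20.80 against 70.59 ± 18.46 CPM; −1.09 ± 0.23, SE; edgeR adjusted p = 0.0446). Gar1 was at 11.24, 8.614, 16.72 and 12.05 CPM without and 7.78, 6.193 and 1.882 CPM with SMARTA. Its groups did not overlap, and it was not called (−1.20 ± 0.49; edgeR adjusted p = 0.233). Dkc1, the pseudouridine synthase dyskerin, was at 77.56 to 115.4 CPM without and at 21.81, 87.64 and 63.47 CPM with SMARTA, so that replicate 2 lay within the range of the other group and replicate 1 was the lowest (−0.77; edgeR adjusted p = 0.374). Nop10, the smallest core protein of the particle, had −0.49 (edgeR adjusted p = 0.366).

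All 15 genes of small subunit assembly had negative fold changes, with a median of −0.62. Of these, 1 was called lower, against 1.63% of all genes. In 6 all libraries with SMARTA lay below all others, against 10.5% of all genes. Wdr75, a protein of the early precursor of the small subunit, lies on chromosome 1 from 45795166 to 45823619. It was at 98.89, 83.49, 72.22 and 107.8 CPM without and 36.46, 49.88 and 39.72 CPM with SMARTA. It fell 2.16-fold (90.60 ± 15.85 against 42.02 ± 6.998 CPM; −1.11 ± 0.22, SE; edgeR adjusted p = 0.0414), although it was called in none of the 7 fits that leave out 1 library (edgeR adjusted p 0.0552 to 0.130). Utp20, a large scaffold protein, was at 59.93, 66.2, 47.2 and 73.33 CPM without and 28.79, 41.9 and 32.46 CPM with SMARTA. It missed the threshold (−0.84 ± 0.24; edgeR adjusted p = 0.0968) without overlap between the groups.

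The other small subunit genes without overlap were the helicase gene Ddx21 (−0.70), Nol7 (−0.64), Nol11 (−0.70) and Utp15 (−0.52). Noc4l (−0.80), Nop14 (−0.68) and Rrp12 (−0.62) overlapped. Wdr43 (−0.36), the helicase gene Ddx10 (−0.32), Utp3 (−0.30), Nop9 (−0.24), Nol6 (−0.19) and Nol10 (−0.004) were nearest to no difference. Utp3, the highest of the 15 per exon length, was at 64.55, 84.71, 99.37 and 96.59 CPM without and 91.61, 77.35 and 40.87 CPM with SMARTA, so that only replicate 3 with SMARTA lay outside the other group (edgeR adjusted p = 0.657).

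All 17 genes of large subunit assembly had negative fold changes, with a median of −0.64. Of these, 3 were called lower, against 1.63% of all genes. In 11 all libraries with SMARTA lay below all others, against 10.5% of all genes. Nop16, on chromosome 13 from 54584185 to 54590090, was at 125.5, 85.49, 84.47 and 114.2 CPM without and 53.59, 38.19 and 34.96 CPM with SMARTA (2.42-fold; −1.28 ± 0.25, SE; edgeR adjusted p = 0.0383). Noc2l, on chromosome 4 from 156236010 to 156247616, showed the largest fold change of the 50 genes at a modest level, 29.58, 36.98, 28.63 and 18.77 CPM without and 12.34, 11.04 and 9.584 CPM with SMARTA (2.59-fold; −1.37 ± 0.29; edgeR adjusted p = 0.0447). Ebna1bp2, on the same chromosome from 118620799 to 118627776, was at 278.4, 182.3, 218.9 and 254.0 CPM without and 139.2, 110.8 and 111.9 CPM with SMARTA (1.94-fold; −0.95 ± 0.21; edgeR adjusted p = 0.0466). In each of these 3 genes the highest library with SMARTA stayed below the lowest without.

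Next in order of p were Mrto4 (−1.26; edgeR adjusted p = 0.0673), Nop2, an RNA methyltransferase also used as a marker of proliferating cells (−0.87; 0.0758), and Gnl3, the GTPase nucleostemin (−1.13; 0.0820), none of them with overlap. Pes1 (−0.49), Bop1 (−0.52) and Wdr12 (−0.59), which form 1 complex, differed in their spread. Wdr12 was at 56.75 to 89.8 CPM without and 46.83 to 54.59 CPM with SMARTA, whereas Bop1 was at 143.6 to 249.3 CPM without and at 242.7, 134.2 and 69.27 CPM with SMARTA. Rrs1 (−1.02), Nol9 (−0.82), Noc3l (−0.64), Rrp1b (−0.57) and the helicase gene Ddx18 (−0.44) had negative fold changes and were not called. Nol8 (−0.40), Rrp1 (−0.12) and the helicase gene Ddx51 (−0.07) were nearest to no difference. Rrp1, with 246.4, 378.1, 413.2 and 412.3 CPM without and 455.5, 302.6 and 239.1 CPM with SMARTA, had both its highest and its lowest library among those with SMARTA (edgeR adjusted p = 0.862).

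**Figure D2:**
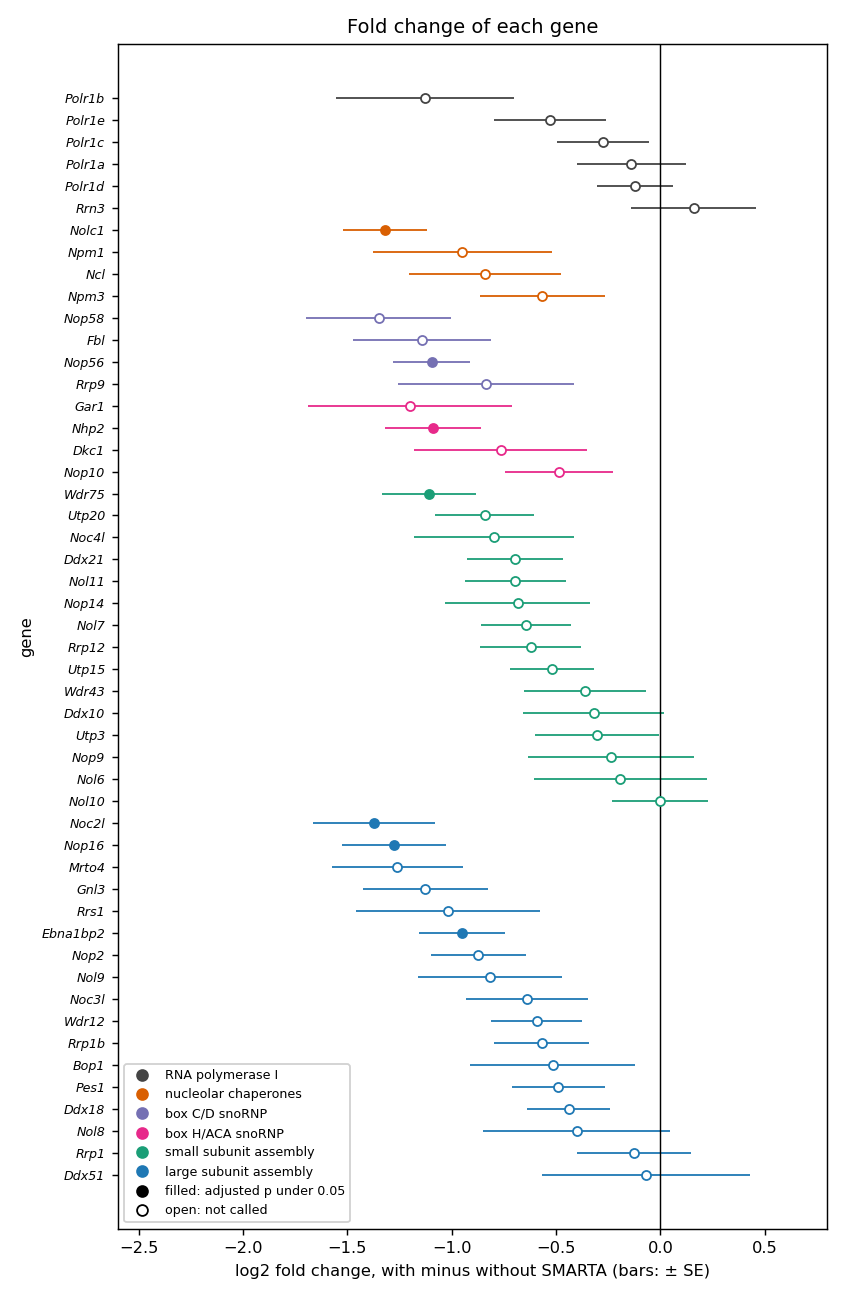
Log2 fold change (with minus without SMARTA) of each of the 50 genes with its standard error, coloured by role; filled points passed an edgeR adjusted p of 0.05 and open points did not. The 7 filled points lie between −1.37 and −0.95, and the RNA polymerase I genes apart from Polr1b lie between −0.53 and 0.16.

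No RNA polymerase I gene was called by edgeR, DESeq2 or limma-voom, and 1 of 6 was lower at an unadjusted p under 0.05, against 9.37% of all genes. With sample quality weights limma-voom called 2 lower, against 4.81% of all genes. The groups overlapped in all 6, with a median of −0.21. Polr1b, the second largest subunit, which forms the active site together with Polr1a, was at 104.3, 67.22, 90.65 and 149.8 CPM without and 71.19, 49.28 and 20.76 CPM with SMARTA. Replicate 1 with SMARTA lay above the lowest library without (−1.13 ± 0.43, SE; edgeR adjusted p = 0.203). Polr1a, the largest subunit, was at 91.68, 50.49, 80.39 and 103.1 CPM without and 81.79, 75.62 and 64.33 CPM with SMARTA, all 3 within the range of the other group (−0.14 ± 0.26; edgeR adjusted p = 0.835). Polr1d, a subunit shared with RNA polymerase III and the highest of the 6 per exon length, was at 107, 97.89, 95.81 and 98.56 CPM without and 109.6, 80.03 and 85.61 CPM with SMARTA (−0.12 ± 0.18; edgeR adjusted p = 0.790). Polr1c, also shared with RNA polymerase III, had −0.28.

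Polr1e was at 64.11, 46.9, 55.78 and 65.65 CPM without and 56.56, 30.92 and 33.31 CPM with SMARTA (−0.53 ± 0.27; edgeR adjusted p = 0.347). Rrn3, the initiation factor that brings RNA polymerase I to the promoter, was the 1 gene of the 50 with a positive value. It was at 86.58, 38.03, 77.91 and 91.02 CPM without and 87.62, 86.92 and 71.24 CPM with SMARTA (0.16 ± 0.30; edgeR adjusted p = 0.837). Replicate 2 without SMARTA was the lowest library, and the value turned to −0.06 without it. Whether the polymerase genes differ from the snoRNP genes in their fold changes was not tested.

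**Figure D3:**
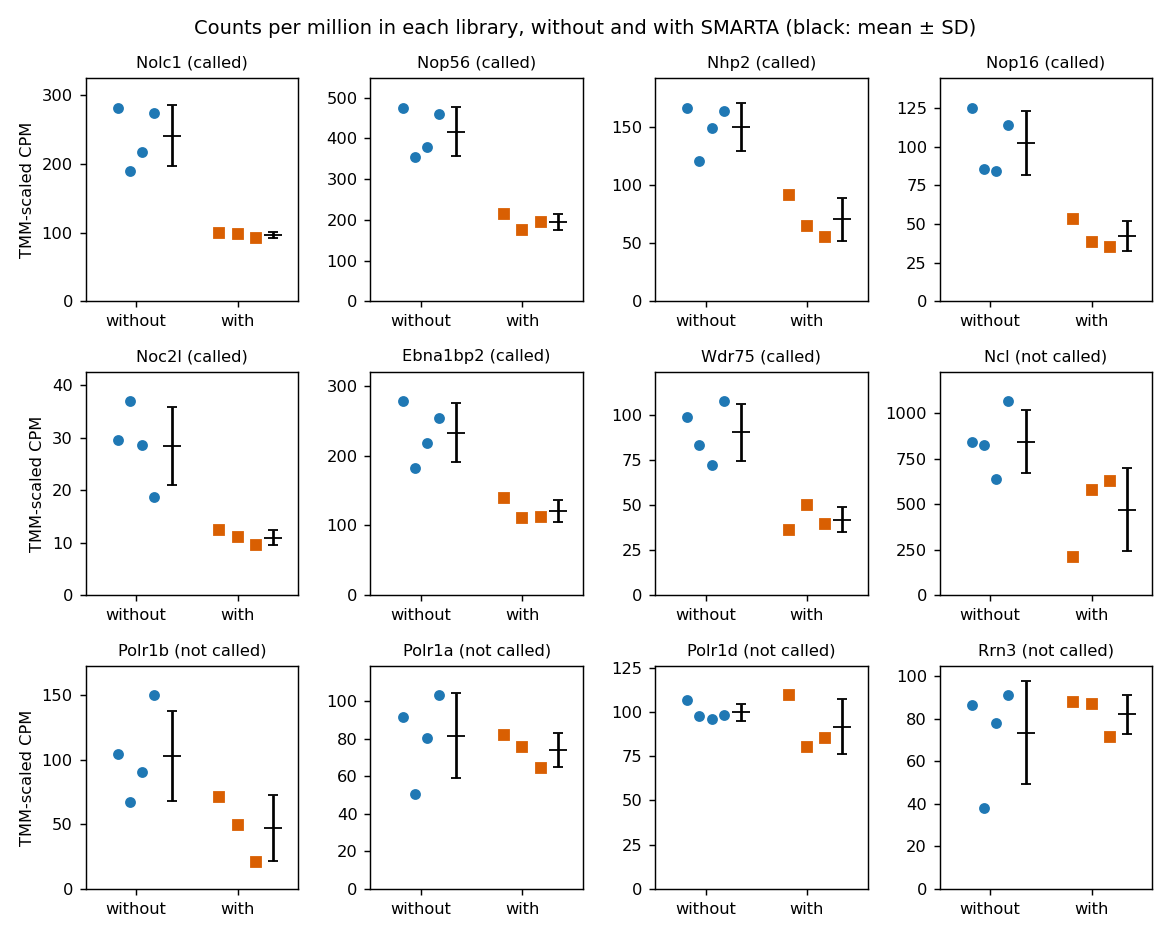
TMM-scaled CPM of 12 genes in each library without SMARTA (blue circles) and with SMARTA (orange squares), with mean and SD in black, on axes that start at 0. The 7 called genes show a gap between the groups, whereas Polr1a, Polr1d and Rrn3 overlap.

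Levels of different genes were compared per exon length, as TPM (transcript share scaled by exon length over all genes counted). Npm1 was the highest of the 50 in its mean over all libraries (488.9 ± 170.0 TPM without and 235.8 ± 119.5 TPM with SMARTA), followed by Rrp1 (330.4 ± 76.45 and 277.8 ± 86.78), Nhp2 (395.8 ± 42.71 and 171.9 ± 41.38) and Nop56 (307.7 ± 37.38 and 132.8 ± 6.658). The mean ± SD ranges of neighbours in this order overlapped in both groups, except for those of Nhp2 and Nop56 without SMARTA. Ddx51 was the lowest (4.032 ± 0.8128 and 3.530 ± 2.254 TPM), below Rrs1 (9.529 ± 1.890 and 4.279 ± 2.408).

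The libraries with SMARTA were not low in the same genes. Replicate 3 was the lowest of the 3 in 29 genes, replicate 1 in 15 and replicate 2 in 6. These differences went with the base composition of the transcripts. Replicate 1 was higher than replicate 3 in all 25 genes with the higher GC share (50.29% to 59.9% of the longest transcript) and in 10 of the 25 with the lower GC share (40.35% to 50.28%). Across the 50 genes the log2 difference between replicates 1 and 3 had a Pearson r of 0.76 and a Spearman rho of 0.78 with the GC share, and across the 15870 tested genes with a GC value 0.36 and 0.43. These are descriptions across genes that share the same libraries, and replicates 1 and 3 were set against each other after their values were seen.

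Relative to the mean without SMARTA, the median of the 25 genes with low GC share lay at −0.95, −0.42 and −0.67 log2 units in replicates 1, 2 and 3 with SMARTA. The median of the 25 genes with high GC share lay at −0.24, −0.80 and −1.34. Both medians were lower in all 3 libraries. The medians without SMARTA were between −0.18 and 0.27. Examples are Ncl (42.84% GC), Npm1 (42.44%), Dkc1 (43.62%) and Nol8 (41.83%) which were lowest in replicate 1, and Bop1 (58.25%), Rrp9 (59.9%) and Nol6 (57.1%), which were lowest in replicate 3. The largest difference of the 50, in Ddx51 (2.35 log2 units at 50.21% GC), and that of Polr1b (1.78 at 51.15%) fell near the middle of the GC range. Nolc1 (51.57%), Nop56 (50.1%) and Nop16 (50.8%) are near the middle. With the trends with GC share and length taken out of each library, an analysis chosen after seeing the data, 13 genes were called lower, against 2.9% of all genes, among them all 7, and Ncl passed with −0.92 (edgeR adjusted p = 0.0356; range over its alternatives 0.0356 to 0.604). The part of RNA quality or of the erythroid transcripts of replicate 1 in this pattern was not tested.

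**Figure D4:**
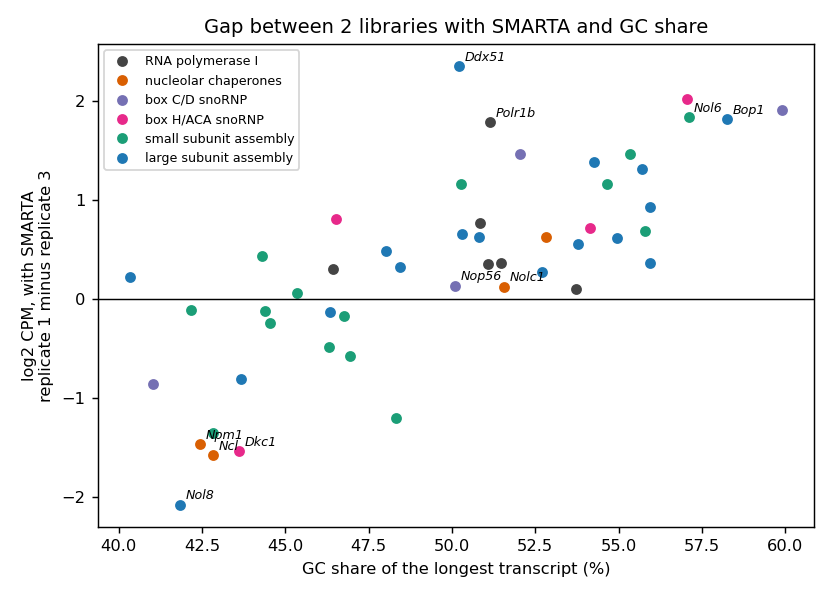
Difference in log2 CPM between replicates 1 and 3 with SMARTA against the GC share of each gene's longest transcript, 50 genes coloured by role. All 25 genes above 50.28% GC lie above 0, and Ncl, Npm1, Dkc1 and Nol8 lie far below it at low GC share.

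Other genes of the same pathway were listed by function. Of 117 such genes, 95 (81.2%) had a negative fold change, with a median of −0.41. By edgeR 3 (2.56%) fell, against 1.63% of all genes, and none rose by edgeR, DESeq2 or limma-voom, with 2 higher at an unadjusted p under 0.05. In 38 (32.5%) all libraries with SMARTA were below all others, against 10.5% of all genes. In 2 (1.71%), Ddx24 and Baz2a, they were above all others, against 8.73% of all genes. The genes that fell were Ruvbl2, a helicase subunit of the snoRNP assembly chaperone (−1.05 ± 0.19, SE; edgeR adjusted p = 0.0303), Dis3, a nuclease of the RNA exosome (−1.47 ± 0.29; edgeR adjusted p = 0.0399), and Lyar (−1.28 ± 0.28; edgeR adjusted p = 0.0466). Ruvbl2 was at 140.2, 112.5, 123.5 and 135.6 CPM without and 72.61, 57.09 and 56.27 CPM with SMARTA. Dis3 was at 14.1, 13.81, 9.855 and 13.82 CPM without and 4.791, 5.277 and 3.91 CPM with SMARTA. Lyar was at 30.66, 36.26, 38.36 and 41.07 CPM without and 14.33, 20.1 and 10.67 CPM with SMARTA. None of the 3 overlapped between the groups. With 1 library left out, Ruvbl2 was called in 2, Dis3 in 1 and Lyar in none of the 7 fits. The 2 highest fold changes among genes above a mean log2 CPM of 3 were 0.59 in Gltscr2 (edgeR adjusted p = 0.524) and 0.56 in the helicase gene Ddx31 (edgeR adjusted p = 0.382). Gltscr2 was at 143.8, 389.8, 416.1 and 302.1 CPM without and 705.8, 473.5 and 237.6 CPM with SMARTA. Ddx31 was at 39.79, 27.02, 34.46 and 50.71 CPM without and 75.43, 54.82 and 37.51 CPM with SMARTA. The groups overlapped in both genes.

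By role, the median was −0.86 over 10 snoRNP assembly genes, all negative, −0.50 over 42 large subunit and −0.41 over 39 small subunit genes, and −0.34 over 14 exosome genes. Over 11 further genes of the RNA polymerase I machinery it was 0.01, with 4 negative and 7 positive, and −0.14 both when counts were scaled by library totals only and by limma-voom with quality weights, so that its sign depends on the processing. The positive genes include Ptrf, which was at only 0.02175 to 2.29 CPM and ran from −0.77 to 1.75 with 1 library left out. Myc was at 260.4, 365.6, 369.9 and 467.7 CPM without and 200.6, 183.7 and 61.59 CPM with SMARTA. It did not overlap between the groups and did not pass by edgeR (−1.30 ± 0.40, SE; edgeR adjusted p = 0.122). It passed by DESeq2 (adjusted p = 0.0178) and in 2 of its other alternatives (range over all 0.0178 to 0.481). In simulated data DESeq2 made 56 false calls, against 2 by edgeR.

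Cytosolic ribosomal proteins are what this machinery assembles. Over 86 cytosolic ribosomal protein genes the median was −0.27, with 72 negative. Over 74 mitochondrial ones, listed for comparison only, it was −0.32, with 58 negative. EdgeR called none of either. At an unadjusted p under 0.05, 13 (15.1%) and 10 (13.5%) were lower, against 9.37% of all genes, and 1 and 0 higher, against 9.18%. DESeq2 called 7 (8.14%) and 4 (5.41%) lower, against 5.78% of all genes, and 1 and 0 higher, against 5.17%. Both lists were formed from gene symbols after the data were seen, and the differences between the lists were not tested. Reads of these genes that also match processed pseudogenes were left out by the authors' counting.

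**Figure D5:**
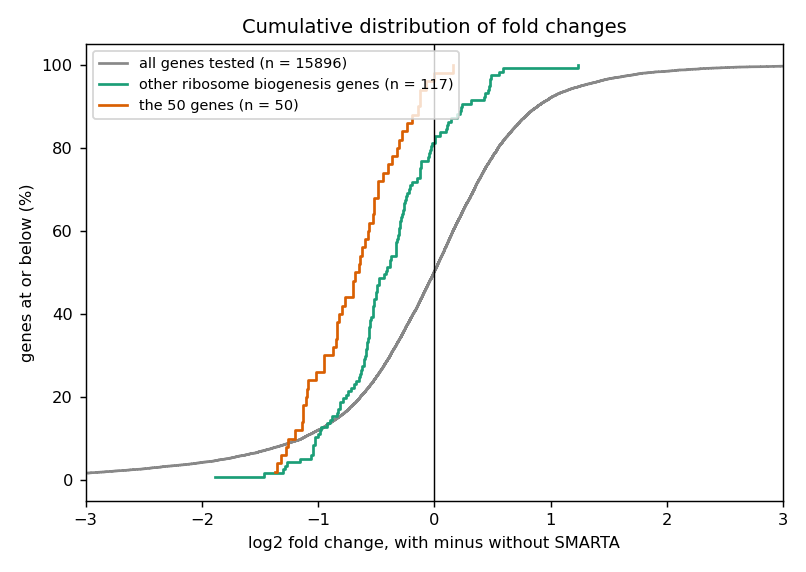
Share of genes at or below each log2 fold change (with minus without SMARTA) for all 15896 genes tested, 117 other ribosome biogenesis genes and the 50 genes. At the medians the curve of the 50 genes lies to the left of both others (−0.66, against −0.41 for the other ribosome biogenesis genes and 0.00 for all genes). In the lower tail, below −1.37, it lies to the right of both.

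The promoters of the genes were searched for 3 motifs on both strands, whatever their fold change. The windows of 300 bases run from 250 before to 50 after the start site (RefSeq, GRCm38.p6; 44 of the 50 genes matched). The motifs were CACGTG, the E-box that MYC and related factors bind, CCGGAAG or its complement CTTCCGG, a core that ETS factors bind, and the palindrome CTCGCGAG, and none of them contains another. CACGTG was found in 6 of 44 genes (13.6%), against 11.6% of 9276 tested genes and 8.1% of all 27025 genes of the table. The ETS core was found in 14 of 44 (31.8%), against 20.4% and 9.9%. CTCGCGAG was found in 1 of 44 (2.3%), against 2.2% and 1%. The 7 called genes all have a window, 4 of which hold the ETS core and none of which holds CACGTG. A match describes letters and is not a site of binding.

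Windows of 3 called genes and of Nop2, which has both motifs, are printed from 5′ to 3′ on the plus strand to show where these letters lie, with the motifs in capitals. Rrn3, the 1 gene with a positive fold change, also has both, with 2 copies of each, and is not printed. Nop2 is not among the genes that the naming rule given below selects. The window of Nolc1 is chr19:46075597-46075896, that of Nhp2 chr11:51619523-51619822, that of Ebna1bp2 chr4:118620549-118620848 and that of Nop2 chr6:125131633-125131932.
Nolc1: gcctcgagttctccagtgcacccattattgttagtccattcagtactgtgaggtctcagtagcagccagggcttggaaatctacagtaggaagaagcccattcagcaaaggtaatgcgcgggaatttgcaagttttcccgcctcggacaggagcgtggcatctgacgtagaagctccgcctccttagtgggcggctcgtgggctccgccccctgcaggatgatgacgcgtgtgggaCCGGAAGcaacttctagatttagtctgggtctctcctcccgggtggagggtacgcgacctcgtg
Nhp2: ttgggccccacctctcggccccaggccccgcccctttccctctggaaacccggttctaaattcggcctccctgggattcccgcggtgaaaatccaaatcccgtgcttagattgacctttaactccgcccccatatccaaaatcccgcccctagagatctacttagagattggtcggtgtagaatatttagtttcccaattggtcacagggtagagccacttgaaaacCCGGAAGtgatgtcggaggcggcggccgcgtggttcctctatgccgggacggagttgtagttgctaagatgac
Ebna1bp2: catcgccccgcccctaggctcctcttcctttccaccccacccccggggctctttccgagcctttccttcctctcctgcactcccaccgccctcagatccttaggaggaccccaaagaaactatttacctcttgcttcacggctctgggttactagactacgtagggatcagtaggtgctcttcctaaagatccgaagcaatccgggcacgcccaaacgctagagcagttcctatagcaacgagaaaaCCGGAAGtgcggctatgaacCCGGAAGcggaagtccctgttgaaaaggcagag
Nop2: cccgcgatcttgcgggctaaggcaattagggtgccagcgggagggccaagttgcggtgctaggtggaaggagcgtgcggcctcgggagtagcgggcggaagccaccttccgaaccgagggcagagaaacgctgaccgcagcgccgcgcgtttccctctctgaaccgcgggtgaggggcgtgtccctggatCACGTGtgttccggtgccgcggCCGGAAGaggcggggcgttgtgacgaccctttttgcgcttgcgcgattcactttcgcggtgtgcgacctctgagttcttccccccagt
The ETS core begins 14 bases before the start site in Nolc1 and 23 before it in Nhp2. In Ebna1bp2 1 copy begins 3 bases before and another 17 bases after the start site. In Nop2 the E-box begins 60 and the ETS core 38 bases before it.

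Noc4l and Ddx51 are neighbours on chromosome 5 that run in opposite directions, and their windows share 168 bases. Noc4l was at 89.98, 118.1, 174 and 155.1 CPM without and 98.92, 96.89 and 35.93 CPM with SMARTA (−0.80; edgeR adjusted p = 0.312). Ddx51 was at 7.01, 8.462, 5.873 and 6.434 CPM without and 10.68, 7.085 and 2.058 CPM with SMARTA (−0.07; edgeR adjusted p = 0.962). Replicate 3 with SMARTA was the lowest of the 7 libraries in both.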

How the data were processed

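RNA of sorted cells was measured after low-input amplification (SMART-seq V4), per the labels' protocols. The submitters' processing notes name STAR 2.6.0c, the build GRCm38.p6 and featureCounts 1.6.2. Pairs were summed by the authors for each gene name of GENCODE M17, per the file headers, with no strand option and default treatment of multiple matches. The deposited values are raw counts, and near-identical copies are uncertain. Samples were grouped by title. Genes were kept by filterByExpr (minimum count 10, total 15), scaled by TMM and tested with edgeR 4.0.16 (R 4.3.3, robust quasi-likelihood fit, two-sided, 7 libraries, no covariate), with a standard error equal to the fold change divided by the root of F. The coefficient of variation between libraries was 0.529. TPM used the deposited exon lengths, and list sums and single marker genes used plain library totals. Alternatives used DESeq2 1.42.0, limma 3.58.1 and mgcv 1.9.3. GC shares came from GENCODE M21 transcripts.

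Members and lists were chosen with earlier results of these data known. Named with values in every library are the 2 members of each role with the smallest p, the highest per exon length, the called members, and, outside this rule and after their values were seen, Polr1a, Rrn3, Noc4l and Ddx51; of the other pathway genes, those called, the 2 highest and 2 lowest above a mean log2 CPM of 3, and Myc. The scripts were tested on simulated counts with known changes. EdgeR recovered 3 of 98 genes changed 2-fold and 46 of 94 changed 4-fold, with 2 false calls. DESeq2 recovered 24 of 98 and 69 of 94, with 56 false calls. A gene that edgeR did not call may therefore still differ by 2-fold or more. Of the other pathway genes listed, Riok2 was not analysed here. No library was a copy of another (chi-square over degrees of freedom from 93.5 to 444 for pairs within a group).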

Additional observations from a re-analysis of the deposited data

Results flagged for a closer look

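Of 62 sets of 4 libraries without SMARTA that were checked for 1 library far from the other 3, where chance alone gives about 1 in 20, 1 was found. Dis3 was at 9.855 CPM in replicate 3 without SMARTA and at 13.81 to 14.1 CPM in the other 3, and the gap made up 0.932 of the whole range. Replicate 3 lay nearer to the libraries with SMARTA than the others did, and it still lay above all of them.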

How the results depend on the processing

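The median of the 50 genes stayed between −0.82 and −0.61 in all alternatives, and that of the other pathway genes between −0.57 and −0.32; the −0.57, with 8 of those genes called, came from library totals, which moved the median of all genes to −0.16. With only genes at 5 CPM or more in 3 libraries, edgeR called 842 genes in all, 12 of the 50 and 15 of the other pathway genes. DESeq2 called 1741, 14 and 20, limma-voom with quality weights 1537, 16 and 25, and removal of GC and length trends, chosen after seeing the data, 991, 13 and 10. In the same order, 8.97%, 10.98%, 9.67% and 6.24% of all genes with an adjusted p were called in either direction. The CPM filter left fewer genes to test. With the replicate number as a block edgeR called 0, 0 and 0, with 1631, 14 and 20 at an unadjusted p under 0.05. Same-numbered libraries correlated in their deviations from the group means with −0.20, 0.13 and −0.50. Differently numbered ones correlated with −0.20 to 0.43, and replicate 4 without SMARTA has no same-numbered library with SMARTA. Deviations from means of 3 or 4 libraries depend on each other, so these values cannot decide whether the numbers pair the samples. The block turned Polr1a to 0.03 and Nol10 to 0.08, and removal of the trends turned Polr1d to 0.00 and Nol10 to 0.07. With 1 library left out, 17 to 907 genes were called in all, 0 to 10 of the 50 and 0 to 6 of the other pathway genes. Those fits also turned Nol10 (−0.17 to 0.12), Ddx51 (−0.60 to 0.31), Rrn3 (−0.06 to 0.28), Nop9 (−0.42 to 0.04), Rrp1 (−0.43 to 0.03) and Nol6 (−0.64 to 0.13). None of the genes that turned was called. The causes of these changes were not tested. The lowest count of any of the 50 genes in a library was 64, and the effect of depth was not tested.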
